A study of Mus musculus with 16 samples.

Results

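The dorsal skin of mice with dermatitis that received BJIKT, a water extract of several herbs also called Bojungikgi-tang, was compared with the skin of untreated mice on normal chow, to measure how far the treated skin still lay from untreated skin. Libraries were taken by their treatment labels: the 4 LowAhR+AD+BJ libraries and the 4 Cont libraries, which are 8 of the 16 libraries of the series. All mice were male C57BL/6N that arrived at 3 weeks of age and adapted for 1 week. Cont mice ate normal chow and received neither the hapten 2,4-dinitrochlorobenzene (DNCB) nor BJIKT. LowAhR+AD+BJ mice ate a low AhR ligand diet for 12 weeks on paper bedding. From the end of week 2 their dorsal skin was painted with 1% DNCB in acetone and olive oil, 2 times a week, and BJIKT was given by gavage every day at 1 g/kg. LowAhR mice had the diet and bedding alone, and LowAhR+AD mice had diet, bedding and DNCB without BJIKT. The compared groups therefore differ in diet, bedding, DNCB and BJIKT at once, and the parts of these 4 factors in a difference cannot be told apart. DNCB is a contact sensitizer, so the model is a hapten dermatitis on a defined diet, and there was no group with BJIKT on normal chow. The 4 mice of a group were drawn from a larger group, with 1 library per mouse.

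The epidermis renews itself from a basal layer of dividing keratinocytes that carry Krt5 and Krt14. Cells that leave this layer switch to Krt1 and Krt10, then fill with loricrin and other cornified envelope proteins, and die as flat cells sealed by ceramides. Injured or inflamed epidermis switches to an alternative program, with the keratins Krt6, Krt16 and Krt17, small proline-rich (SPRR) proteins and the S100A8 and S100A9 alarmins. Skin also holds hair follicles, which pass through phases of growth and rest, as well as sebaceous glands, dermal fibroblasts, fat and a sheet of muscle. The aryl hydrocarbon receptor (AhR) is a ligand-activated transcription factor of keratinocytes and immune cells, whose ligands come from diet, microbes and light.

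RNA was read next to the poly(A) tail, so that counts follow transcript number with little effect of length, and levels are given in CPM, the count divided by the library total (with edgeR's TMM factor) and scaled to a common total. Totals were 7080508 to 8051425 counts in Cont and 10614393 to 12999055 in LowAhR+AD+BJ, so depth and group cannot be told apart. Thinning every library to the smallest total left 2960 called genes in place of 2949. Rn45s, a ribosomal RNA transcript, made up 1.68% to 3.74% of Cont counts and 0.783% to 1.61% of those in LowAhR+AD+BJ. A count of 0 allows up to 0.388 CPM in a Cont library and up to 0.305 CPM in a LowAhR+AD+BJ library. In whole skin, fewer cells of a type and less RNA per cell cannot be told apart. Krt14 was at 596–892 CPM in Cont, Col1a1 at 10945–20013 CPM and the muscle gene Myh1 at 632–1474 CPM, so the samples held epidermis, dermis and muscle. LowAhR+AD+BJ replicate 3 lay nearest to Cont and LowAhR+AD replicate 1 lay apart from its group. Of 227 called genes followed in each fit, leaving out LowAhR+AD+BJ replicate 3 moved the fold change of 13 by over 1.5 times and ended the call of 9.

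LowAhR+AD+BJ skin lay apart from Cont skin over the whole transcriptome. Distance between 2 libraries was the root mean square difference of log2 CPM over the 14854 tested genes. It averaged 1.69 between LowAhR+AD+BJ and Cont libraries, with a range of 1.29 to 1.97, against 1.25 among Cont libraries and 1.12 among LowAhR+AD+BJ libraries. The excess of the between-group mean over the within-group mean was 0.507, and no other division of the 8 libraries gave a larger value (exact permutation test over 70 divisions, two-sided p = 0.0286, the smallest this design can give). Leaving out the genes of muscle, fat and hair lowered the excess to 0.423.

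Measured from the mean Cont profile, the LowAhR+AD+BJ libraries lay at 1.51, 1.6, 1.27 and 1.65, the LowAhR+AD libraries at 2.0, 1.5, 1.48 and 1.61 and the LowAhR libraries at 1.2, 1.2, 1.01 and 1.19. Each Cont library lay 0.83 to 1.19 from the mean of the other Cont libraries. All 4 LowAhR+AD+BJ libraries were farther from Cont than every LowAhR library, and replicates 1, 2 and 4 lay within the range of the LowAhR+AD libraries, with replicate 3 below it. Between single libraries, LowAhR+AD+BJ replicate 3 was nearest to LowAhR replicate 4 (0.801), which had no DNCB. Its distances within its own group were 1.02, 1.06 and 1.21, and those to LowAhR+AD replicates 2 and 3 were 0.923 and 0.916. The cause was not tested. The LowAhR+AD+BJ mean was 1.51 ± 0.165 (SD, n = 4) and the LowAhR+AD mean 1.65 ± 0.24 (SD, n = 4), a difference of -0.139 that the spread between mice covers (exact permutation test, two-sided p = 0.486). Without LowAhR+AD replicate 1 the difference was -0.0223, and without LowAhR+AD+BJ replicate 3 it was -0.0615, so a nearer position of the treated mice was not detectable with these 8 libraries.

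**Figure D1:**
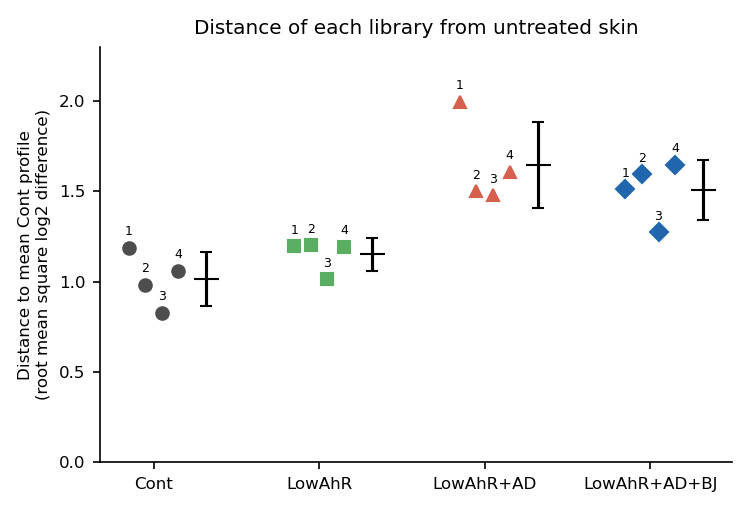
Distance of every library from the mean Cont profile, as the root mean square log2 difference over tested genes (vertical axis), for the 4 groups. Numbers are replicates, bars give mean and SD (n = 4), Cont libraries are measured from the mean of the other Cont libraries, and LowAhR+AD+BJ replicates 1, 2 and 4 lie within the range of the LowAhR+AD libraries, replicate 3 below it, and all 4 above every LowAhR library.

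Of the tested genes, 2949 differed between LowAhR+AD+BJ and Cont at an adjusted p under 0.05, or 19.9% (edgeR quasi-likelihood test, Benjamini-Hochberg). Higher in LowAhR+AD+BJ were 1669 genes (11.2%) and lower were 1280 (8.62%). A fitted change of at least 2-fold was seen for 2127 of them, of at least 4-fold for 706 and of at least 16-fold for 318. The groups did not overlap in 4120 of the tested genes (27.7%), and 2626 genes were both called and without overlap. When the test itself demanded a change beyond 2-fold, 419 genes passed, 293 higher and 126 lower. The median log2 fold change of all tested genes was 0.03, which is the background for the list medians below. The 19.9% called among all tested genes is the background for the counts called in each list.

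**Figure D2:**
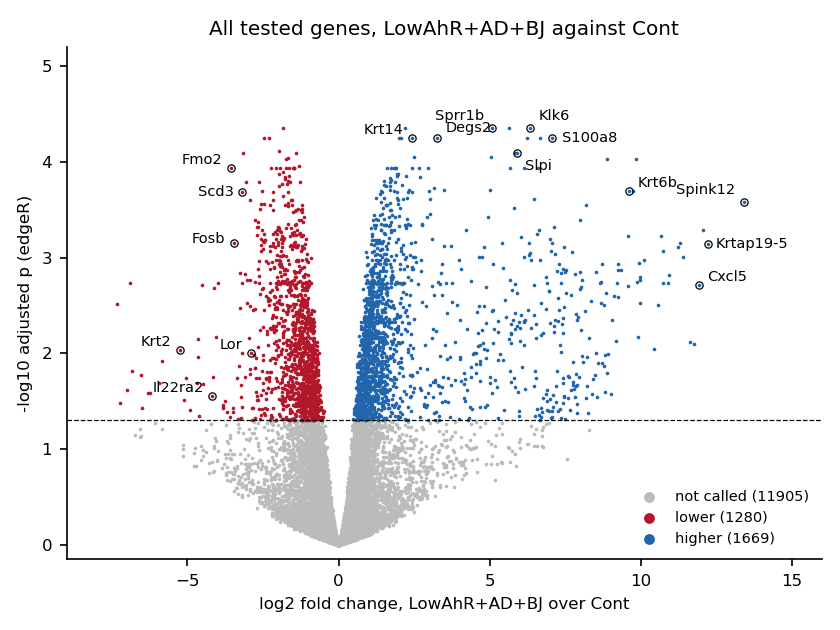
Log2 fold change of LowAhR+AD+BJ over Cont (horizontal axis) and −log10 of the edgeR adjusted p (vertical axis) for all 14854 tested genes, with the threshold of 0.05 as a dashed line. The rises reach much larger fitted fold changes than the falls, and named genes are circled. Fitted values of genes without counts in Cont are not measured ratios, and the text gives lower bounds for those it names.

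The largest rises were in genes that Cont skin barely expressed. Spink12, a Kazal-type serine protease inhibitor, was listed at 0 in all Cont mice and at 93.2, 226, 71.2 and 162 CPM in the LowAhR+AD+BJ mice, at least 356-fold higher against the limit of 3 counts per Cont library (adjusted p = 0.000264). Cxcl5, a chemokine that attracts neutrophils, was at 0 in all Cont mice and at 74.1, 103, 0.856 and 19.5 CPM in the LowAhR+AD+BJ mice, at least 128-fold higher (adjusted p = 0.00194), and LowAhR+AD+BJ replicate 3 was far below the other three. Saa1, an acute-phase serum amyloid, went from 0 in all Cont mice to 100.03, 13.2, 10.4 and 14.3 CPM, at least 89-fold (adjusted p = 0.000981). Capn8, a calpain protease, was at least 64-fold higher, the unnamed locus 2310061N02Rik at least 81.9-fold and the predicted gene Gm11937 at least 105-fold, again with 0 counts in Cont. The 4 other genes were keratin-associated proteins of the hair shaft. Krtap19-5 was at 0, 0, 0.247 and 0.958 CPM in Cont against 900.1, 2176, 1792 and 1239.6 CPM in LowAhR+AD+BJ (adjusted p = 0.000718), and Krtap19-2 at 0, 0, 0 and 1.56 and 655, 1473, 1112 and 752 CPM (adjusted p = 0.000784). Krtap20-2 was at least 115-fold higher, and Krtap1-3 rested on 1 Cont count in all, a ratio of 5961 with a counting interval of 1069.6 to 235488 (adjusted p = 0.000517).

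The largest falls took in the keratins Krt2 and Krt77 and genes of several other kinds. Krt2, the keratin of the granular layer, was at 30.7, 66, 6.91 and 31.1 CPM in the Cont mice and 0, 1.63, 0.389 and 1.51 CPM in the LowAhR+AD+BJ mice (log2 fold change -5.26 ± 1.32 (SE), adjusted p = 0.00924). Krt77, a keratin of sweat ducts and mouse epidermis, fell from 9.22–26.3 to 0–5.83 CPM (log2 fold change -3.35 ± 0.94 (SE), adjusted p = 0.0183). All 4 Cont values lay above every LowAhR+AD+BJ value for both keratins. Il22ra2, a decoy receptor that binds interleukin 22, was at 17.1–24.2 CPM in Cont and at 0 in LowAhR+AD+BJ replicates 1, 2 and 4, with 4.36 CPM in replicate 3 (log2 fold change -4.19 ± 1.28 (SE), adjusted p = 0.0281). Dab1, an adaptor of reelin signalling, had the same layout, with 21.4–26.7 CPM in Cont against 7.93 CPM in LowAhR+AD+BJ replicate 3 alone (log2 fold change -3.51 ± 1.16 (SE), adjusted p = 0.0408). Fosb, an immediate early transcription factor, fell from 18.7, 45.4, 27.8 and 16 CPM to 1.55, 1.93, 3.58 and 2.62 CPM (log2 fold change -3.47 ± 0.58 (SE), adjusted p = 0.000703). Fmo2, a flavin-containing monooxygenase, fell from 36.6–52.5 to 2.12–5.68 CPM (log2 fold change -3.57, adjusted p = 0.000116) and Kcna1, a potassium channel of nerve, from 16–77 to 0.706–5.76 CPM (-3.99, adjusted p = 0.00185). Pon1, a paraoxonase (-4.65), C7, a complement component (-4.16), and Oxtr, the oxytocin receptor (-3.28), fell as well. Without LowAhR+AD+BJ replicate 3 the log2 fold change was -6.12 for Krt77, -4.68 for Kcna1, -5.24 for C7 and -4.11 for Oxtr. With Il22ra2 and Dab1 then at 0 in all remaining LowAhR+AD+BJ mice, these were at least 68-fold and 76.2-fold lower against the limit of 3 counts per LowAhR+AD+BJ library. Krt77 was no longer called without LowAhR+AD+BJ replicate 2 (adjusted p up to 0.0598), Il22ra2 with any 1 library left out other than Cont replicate 2 or LowAhR+AD+BJ replicate 3 (up to 0.0707), and Dab1 with any 1 library left out other than LowAhR+AD+BJ replicate 3 (up to 0.0907). C7 was no longer called without Cont replicate 3 (adjusted p up to 0.0585).

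The keratins of injured epidermis stayed far above the untreated level. All 4 of the stress keratins tested were higher, with a median log2 fold change of 6.03. Krt6a was at 235, 109, 260.1 and 124 CPM in the Cont mice and 13263, 19701, 5870.2 and 15684 CPM in the LowAhR+AD+BJ mice. Every LowAhR+AD+BJ mouse lay far above the highest Cont mouse (log2 fold change 6.23 ± 0.68 (SE), adjusted p = 5.63e-05). Krt16, its usual partner, was at 17.8, 8.14, 26.8 and 30.05 CPM in the Cont mice and 1317, 1531, 568 and 1334 CPM in the LowAhR+AD+BJ mice (log2 fold change 5.84 ± 0.69 (SE), adjusted p = 8.12e-05). Krt6b rose from 0–15.1 to 3275–7079 CPM (log2 fold change 9.61 ± 1.34 (SE), adjusted p = 0.00020) and Krt17 from 633–1085 to 2889.5–4112 CPM (log2 fold change 2.13 ± 0.37 (SE), adjusted p = 0.000913). LowAhR+AD+BJ replicate 3 had the lowest level of each of these 4 keratins in its group, and its Krt6a level of 5870.2 CPM was still far above Cont. Krt6a and Krt6b are near-identical copies, so the split of reads between them is uncertain.

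SPRR proteins are cross-linked precursors of the cornified envelope that injured epidermis makes in excess. Of 12 SPRR genes tested, 11 were higher and none lower, with a median log2 fold change of 5.16. Sprr1b was at 12.6, 10.7, 11.7 and 11.1 CPM in the Cont mice and 479, 482, 158 and 446 CPM in the LowAhR+AD+BJ mice (log2 fold change 5.08 ± 0.51 (SE), adjusted p = 4.45e-05). Sprr1a, which Cont skin already expressed, rose from 212–593 to 1546–3304 CPM (log2 fold change 2.44 ± 0.45 (SE), adjusted p = 0.00131). Sprr2g had 1 count in Cont in all and reached 18.4, 37.4, 12.9 and 13.6 CPM in LowAhR+AD+BJ, an increase resting on that 1 count (a ratio of 639 with a counting interval of 114 to 25269, adjusted p = 9.24e-05), and Sprr2h rose from 0–2.99 to 77–100.2 CPM (log2 fold change 5.41 ± 0.91 (SE), adjusted p = 0.000704). Sprr2d was at 0, 5.43, 4.57 and 4.31 CPM in Cont against 65.7, 142, 36.5 and 88.5 CPM in LowAhR+AD+BJ (log2 fold change 4.53 ± 1.15 (SE), adjusted p = 0.00997). Sprr2a3 (5.67, or 5.02 without LowAhR+AD+BJ replicate 3) and Sprr2f (5.64) rose too. Sprr2b was the member that did not pass, at 0–1.67 CPM in Cont against 1.1–19.8 CPM in LowAhR+AD+BJ (adjusted p = 0.0554). The Sprr2 genes are near-identical copies whose single values are uncertain. limma voom called 4 of the 12.

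Promoters of the SPRR genes are shown because these genes rose together, and because AP-1 factors are known regulators of the family. The RefSeq windows run from 250 bases before to 50 bases after the transcription start on GRCm38.p6. They were found for 11 SPRR genes, and 8 of these (72.7%) held the AP-1 letters TGANTCA, a palindrome read on both strands, against 7.81% of all 32851 windows. Capitals mark the motif in Sprr1a at chr3:92485832-92486131 (minus strand), Sprr1b at chr3:92438730-92439029 (minus strand) and Sprr2d at chr3:92338890-92339189 (plus strand). None of the 6 Lce3 windows and 2 of the 11 S100 genes with a window held it, and no window was found for the stress keratins. Sprr2 genes are near-identical copies, so their windows need not be independent of each other. A match describes letters and is no measured binding site.
Sprr1a: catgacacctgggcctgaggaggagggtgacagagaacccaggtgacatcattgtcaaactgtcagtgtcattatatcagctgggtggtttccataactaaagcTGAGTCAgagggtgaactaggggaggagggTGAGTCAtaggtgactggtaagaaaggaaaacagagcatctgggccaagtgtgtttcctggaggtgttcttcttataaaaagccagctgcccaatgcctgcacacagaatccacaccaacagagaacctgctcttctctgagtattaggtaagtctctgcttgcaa
Sprr1b: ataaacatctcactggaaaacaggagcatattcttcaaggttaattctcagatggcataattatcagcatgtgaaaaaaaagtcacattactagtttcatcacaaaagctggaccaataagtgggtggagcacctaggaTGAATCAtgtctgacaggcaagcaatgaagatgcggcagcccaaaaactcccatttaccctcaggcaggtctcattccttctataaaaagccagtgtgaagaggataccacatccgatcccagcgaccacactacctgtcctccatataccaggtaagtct
Sprr2d: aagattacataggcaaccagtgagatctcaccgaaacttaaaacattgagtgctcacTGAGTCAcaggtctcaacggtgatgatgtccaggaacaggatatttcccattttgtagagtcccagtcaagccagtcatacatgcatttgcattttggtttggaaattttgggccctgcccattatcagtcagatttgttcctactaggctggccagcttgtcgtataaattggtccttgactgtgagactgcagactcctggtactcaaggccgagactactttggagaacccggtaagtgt

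Late cornified envelope genes of the Lce3 family, which are known from wounded and psoriatic epidermis, rose as a block, and the Lce1 family of normal epidermis did not. All 6 Lce3 genes were higher (median log2 fold change 6.36), led by Lce3b, which rose from 0–1.29 to 8.48–79.5 CPM (log2 fold change 6.86 ± 1.30 (SE), adjusted p = 0.00161). Lce3a had a log2 fold change of 6.71, Lce3f of 6.58 and Lce3d of 6.15. The summed Lce3 level was 27.9, 6.07, 25.9 and 21.5 CPM in Cont against 719, 1202, 221 and 774 CPM in LowAhR+AD+BJ. None of the 14 Lce1 genes passed in either direction (median -0.60), and their summed level was 5945, 4624, 5095 and 5093 CPM in Cont against 540.3, 3479, 3901 and 3809 CPM in LowAhR+AD+BJ. All 4 LowAhR+AD+BJ sums were below the lowest Cont sum, with LowAhR+AD+BJ replicate 1 far below the others. limma voom called 1 Lce3 gene.

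Among the S100 genes, 10 of 13 were higher and none lower (median log2 fold change 1.57). S100a8, one partner of the calprotectin alarmin, was at 3.47, 2.84, 9.75 and 11.7 CPM in the Cont mice and 1069, 1391, 529.5 and 722 CPM in the LowAhR+AD+BJ mice (log2 fold change 7.06 ± 0.79 (SE), adjusted p = 5.63e-05), and its partner S100a9 rose from 15.6–25 to 393–1453 CPM (log2 fold change 5.67 ± 0.72 (SE), adjusted p = 0.000116). The lowest LowAhR+AD+BJ level of both came from replicate 3 and was still far above the highest Cont level. S100a7a, the mouse psoriasin, was at 0, 0, 0.37 and 0 CPM in Cont against 8.58, 25.6, 9.18 and 22.9 CPM in LowAhR+AD+BJ, a ratio of 169 with a counting interval of 57.6 to 821 from 3 Cont counts (adjusted p = 0.00117). S100a3, a protein of the hair cuticle, rose from 0–10.3 to 194–682 CPM (log2 fold change 6.48 ± 1.27 (SE), adjusted p = 0.00192). S100a6 rose by a smaller factor, from 615–689 to 1693–2770.5 CPM, as did S100a10, from 196–244 to 299–559 CPM (log2 fold change 0.92 ± 0.22 (SE), adjusted p = 0.00773).

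Proteases and protease inhibitors of the upper epidermis rose too. Kallikreins cut the corneodesmosomes that hold dead cells together, and 5 of the 9 genes in this list were higher. Klk6 was at 10.5, 13.8, 17.4 and 15.9 CPM in the Cont mice and 1337, 1222, 856 and 1228 CPM in the LowAhR+AD+BJ mice (log2 fold change 6.33 ± 0.64 (SE), adjusted p = 4.45e-05). Klk7, the most abundant, rose from 1688–2440.4 to 4242–10552 CPM (log2 fold change 2.13 ± 0.36 (SE), adjusted p = 0.000731), Klk10 had a log2 fold change of 2.09 and Klk13 of 4.87. Klk14 had 2 Cont counts in all, a ratio of 81.2 with a counting interval of 22.2 to 674 (adjusted p = 0.0237). Spink5, which encodes their inhibitor LEKTI, was at 1226–1626 CPM in Cont against 1688–2669 CPM in LowAhR+AD+BJ and did not pass (adjusted p = 0.225). Of 10 serpins and stefins, 6 were higher. Stfa1, a cysteine protease inhibitor, was at 2.44, 3.23, 9.5 and 2.15 CPM in the Cont mice and 378, 581, 304 and 509 CPM in the LowAhR+AD+BJ mice (log2 fold change 6.67 ± 0.72 (SE), adjusted p = 5.63e-05), and the related BC100530 rose from 18.9–56.7 to 1645–4209 CPM (log2 fold change 6.13 ± 0.77 (SE), adjusted p = 0.000116). Stfa2l1 rose by 5.52, Stfa3 by 3.35, Stfa2 by 3.24 and Serpinb2 by 1.30 on the log2 scale. Stefin genes are close copies with uncertain single values. limma voom called 3 kallikreins and 3 serpins and stefins. Klk14 was no longer called without Cont replicate 2, 3 or 4 or LowAhR+AD+BJ replicate 2 (adjusted p up to 0.0802), and Serpinb2 without Cont replicate 1, 2 or 3 or LowAhR+AD+BJ replicate 1 or 2 (up to 0.175).

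Envelope proteins of normal terminal differentiation moved in both directions: 4 of 18 were higher and 3 lower. Lor encodes loricrin, the main envelope protein, and was at 8617, 6486, 6063 and 4943 CPM in the Cont mice and 158, 596, 1521 and 1190.0 CPM in the LowAhR+AD+BJ mice. Every LowAhR+AD+BJ mouse was below every Cont mouse (log2 fold change -2.91 ± 0.74 (SE), adjusted p = 0.0099). Flg2, an S100-fused protein of the granular layer, was at 1440.5, 1529, 1541 and 1676 CPM in the Cont mice and 32.4, 123, 608 and 196 CPM in the LowAhR+AD+BJ mice (log2 fold change -2.69 ± 0.84 (SE), adjusted p = 0.0304), with a log2 fold change of -3.73 without LowAhR+AD+BJ replicate 3. Ppl, the envelope linker periplakin, fell from 425–548 to 101–282 CPM (log2 fold change -1.13 ± 0.31 (SE), adjusted p = 0.0147). Hrnr, hornerin, was at 938–1214 and 37.2–258 CPM without overlap but did not pass (adjusted p = 0.0582). Ivl, involucrin, was at 218–319 and 167–376 CPM, with a log2 fold change of 0.15 (95% interval -0.74 to 1.05, adjusted p = 0.849), so a change of either sign within that interval was not resolved. The 4 higher genes were Rptn, repetin (3.12), Crnn, cornulin, which was at 0 in all Cont mice and 9.31–27.7 CPM in LowAhR+AD+BJ (at least 49.4-fold), Tchhl1 (6.38) and the transglutaminase Tgm3 (1.97). limma voom called 4 higher and 5 lower. Flg2 was no longer called with any 1 library left out other than Cont replicate 1 or LowAhR+AD+BJ replicate 3 (adjusted p up to 0.0931).

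Among the 8 keratins of the basal and suprabasal layers, Krt14 rose and Krt2 and Krt77 fell. Krt14, the basal keratin, was at 829, 596, 892 and 615 CPM in the Cont mice and 3909, 4841, 2294 and 4866 CPM in the LowAhR+AD+BJ mice, without overlap (log2 fold change 2.44 ± 0.27 (SE), adjusted p = 5.63e-05). Its partner Krt5 was at 917–1442 and 1412–1934 CPM and did not pass (0.49, adjusted p = 0.351). Krt10, a suprabasal keratin, was at 1714, 2064, 2155 and 2606 CPM in Cont against 53.9, 884, 1271 and 1407 CPM in LowAhR+AD+BJ. All LowAhR+AD+BJ values lay below Cont, yet they spread so widely that the gene did not pass (log2 fold change -1.24 ± 1.02 (SE), adjusted p = 0.449). Krt1, the partner of Krt10, was at 449.5–695 and 15.2–1150.4 CPM (adjusted p = 0.918).

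The barrier lipid genes that passed went in both directions. Of 23 tested, 3 were higher and 4 lower (30.4%, against 19.9% of all tested genes), with a median of 0.00. Both epidermal lipoxygenases, which oxidise the linoleate of acylceramides, fell: Alox12b was at 73.4, 49.4, 86.5 and 69.1 CPM in the Cont mice and 6.94, 16.3, 20.9 and 22.7 CPM in the LowAhR+AD+BJ mice (log2 fold change -2.06 ± 0.48 (SE), adjusted p = 0.00571), and Aloxe3 fell from 74.8–119 to 12.1–32.3 CPM (log2 fold change -2.03 ± 0.38 (SE), adjusted p = 0.00161). Fa2h, a fatty acid hydroxylase (-1.05), and Elovl1, a fatty acid elongase (-0.69), fell by less. Degs2, which makes phytoceramides, rose from 5.56–8.22 to 28.5–94.2 CPM (log2 fold change 3.26 ± 0.35 (SE), adjusted p = 5.63e-05), and Sptlc1 (1.48) and Sptlc2 (0.75), subunits of the enzyme that starts sphingolipid synthesis, rose. Fa2h was no longer called without Cont replicate 1 or LowAhR+AD+BJ replicate 2, 3 or 4 (adjusted p up to 0.0701), Elovl1 without Cont replicate 1 or LowAhR+AD+BJ replicate 1 or 4 (up to 0.0594), and Sptlc2 without Cont replicate 2 or 3 or LowAhR+AD+BJ replicate 1 or 2 (up to 0.0998).

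Cell junction genes also went both ways. Of 13 desmosome genes 3 were higher and 1 lower (30.8%, against 19.9% of all tested genes). Dsc2 rose from 0–3.23 to 15.5–55.9 CPM (log2 fold change 4.60 ± 0.99 (SE), adjusted p = 0.00367), Dsg3, a basal desmoglein, from 10.7–12.2 to 23–68.7 CPM (log2 fold change 2.01 ± 0.44 (SE), adjusted p = 0.00414), and the plakophilin Pkp3 rose by 0.87. Dsg1a, a desmoglein of the upper layers, was lower (-0.89, adjusted p = 0.0404), with near-identical copies elsewhere. Of 14 tight junction genes 3 were higher and 2 lower (35.7%). Cldn4 (1.13) and Cldn1 (0.75) were among those that rose, and Cldn23, at 49.1–67.1 CPM in Cont against 3.56–25.7 CPM in LowAhR+AD+BJ, fell (log2 fold change -1.85 ± 0.51 (SE), adjusted p = 0.0156), as did cingulin, Cgn (-1.13). Pkp3 was no longer called with any 1 library left out other than Cont replicate 3 or LowAhR+AD+BJ replicate 1 (adjusted p up to 0.0945), Dsg1a with any 1 library left out other than LowAhR+AD+BJ replicate 4 (up to 0.116), and Cldn4 without Cont replicate 1 or 4 or LowAhR+AD+BJ replicate 2, 3 or 4 (up to 0.0812). Cldn1 was no longer called without Cont replicate 2 or LowAhR+AD+BJ replicate 2 or 4 (adjusted p up to 0.0693), and Cgn with any 1 library left out other than Cont replicate 1 or LowAhR+AD+BJ replicate 3 (up to 0.102).

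**Figure D3:**
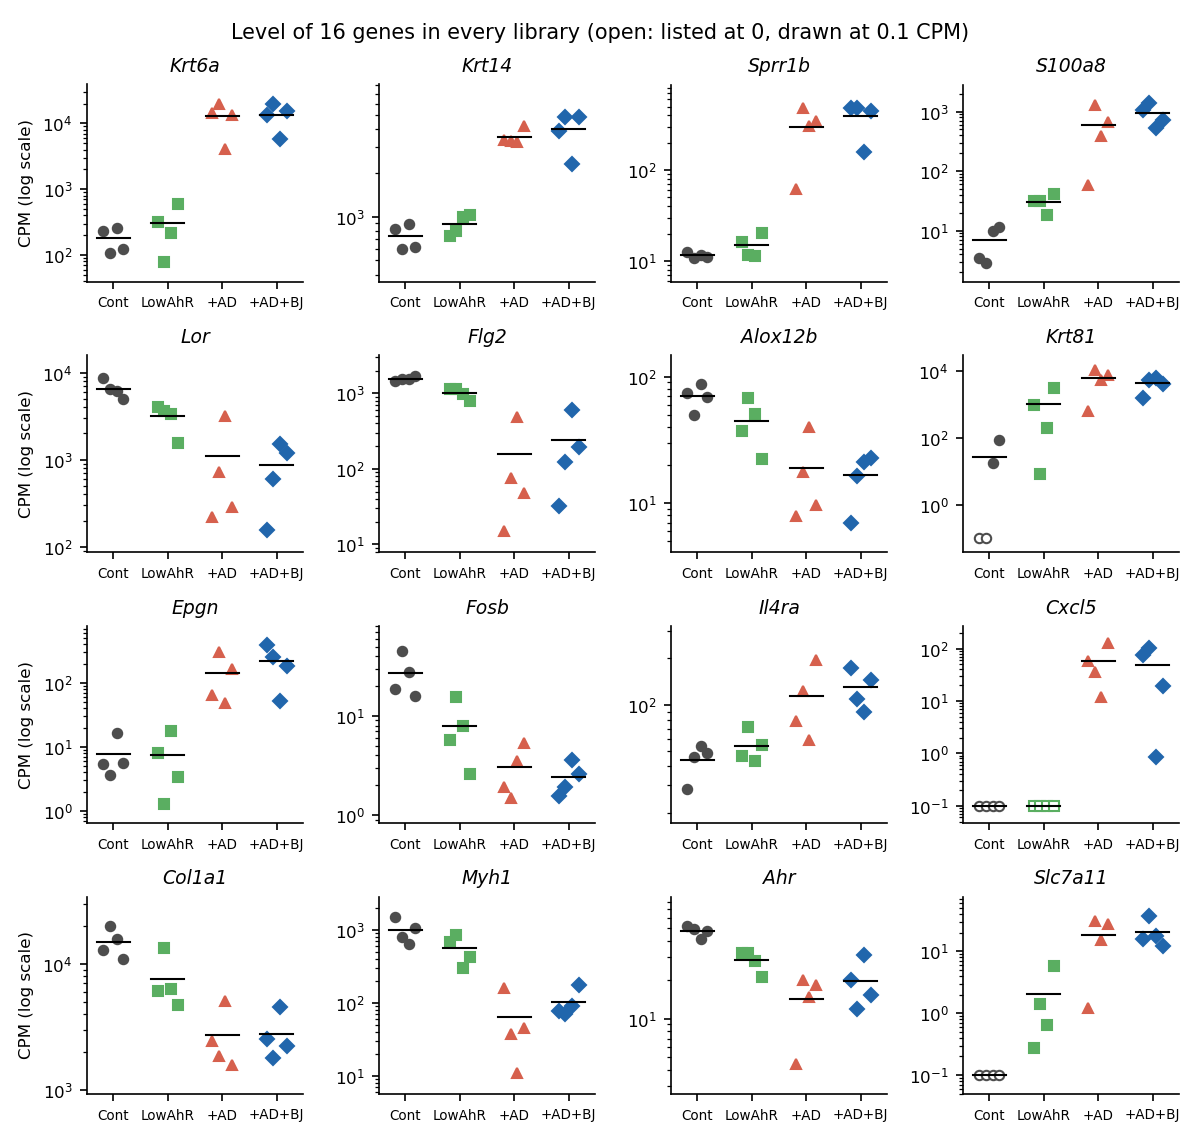
CPM on a log axis of 16 genes in every library of the 4 groups, with 1 point per mouse, a bar at the group mean and open points for a count of 0, drawn at 0.1 CPM. Keratinocyte stress genes and Slc7a11 stand high and Lor, Fosb, Col1a1, Myh1 and Ahr stand low in both groups that received DNCB.

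Genes of cell division were higher in LowAhR+AD+BJ skin. Of 26 cell cycle genes, 15 were higher and none lower (median log2 fold change 1.38). Birc5, survivin, was at 20.4, 7.88, 14.7 and 14.5 CPM in the Cont mice and 62, 93.9, 41.9 and 109.7 CPM in the LowAhR+AD+BJ mice (log2 fold change 2.42 ± 0.31 (SE), adjusted p = 0.000116). Cdk1, the mitotic kinase, rose from 12.3–19.2 to 43.2–115 CPM (log2 fold change 2.37 ± 0.37 (SE), adjusted p = 0.000462), and cyclin B2, Ccnb2 (2.29), the mitotic kinase Plk1 (2.04) and the replicative helicase subunit Mcm5 (2.03) rose as well. Neither Birc5 nor Cdk1 overlapped between the groups. Mki67, a common marker of cycling cells, was at 42.1–70.8 and 43.8–72.3 CPM and did not pass (0.18, 95% interval -0.39 to 0.75).

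Of 9 ligands and receptors of the epidermal growth factor (EGF) family tested, 3 were higher, all of them ligands, and 3 were lower, namely the ligands Ereg and Btc and the receptor Erbb2. Epgn, epigen, was at 5.39, 3.62, 16.8 and 5.63 CPM in the Cont mice and 389.5, 251, 52.8 and 185 CPM in the LowAhR+AD+BJ mice (log2 fold change 4.80 ± 0.82 (SE), adjusted p = 0.000769). Hbegf rose from 2.75–18.8 to 17–47.3 CPM (log2 fold change 2.06 ± 0.53 (SE), adjusted p = 0.0111) and Areg, amphiregulin, by 1.77 on the log2 scale. Ereg, epiregulin, fell from 51.8–79.98 to 10.04–28.7 CPM (log2 fold change -1.84 ± 0.44 (SE), adjusted p = 0.00671), Btc, betacellulin, had a log2 fold change of -1.87, and the receptor Erbb2 of -1.35. The receptor Egfr was at 26.8–57.5 and 24.8–46.1 CPM and did not pass (adjusted p = 0.421). Areg was no longer called without Cont replicate 1, 2 or 4 or LowAhR+AD+BJ replicate 1 or 2 (adjusted p up to 0.169), Btc with any 1 library left out other than Cont replicate 2 or LowAhR+AD+BJ replicate 3 (up to 0.0969), and Erbb2 without Cont replicate 4 or LowAhR+AD+BJ replicate 1 or 2 (up to 0.103).

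Immediate early genes, which respond fast to growth factors and stress, were lower more often than higher: 7 of 17 fell and 1 rose (median -0.69). Atf3 was at 38, 21.4, 29.4 and 10.5 CPM in the Cont mice and 2.37, 7.94, 5.13 and 2.02 CPM in the LowAhR+AD+BJ mice (log2 fold change -2.50 ± 0.50 (SE), adjusted p = 0.0021). Egr1 fell from 184–355 to 95.9–149 CPM (log2 fold change -1.16 ± 0.30 (SE), adjusted p = 0.0124), Fos had a log2 fold change of -1.71, Zfp36, which encodes an RNA decay factor, of -1.11, Jun of -0.70 and Jund of -0.69. Fosl1 was the member that rose, from 0–1.16 to 0.467–10.8 CPM (log2 fold change 3.53 ± 1.11 (SE), adjusted p = 0.0316). Fos was no longer called with any 1 library left out other than Cont replicate 1 (adjusted p up to 0.128), Zfp36 without Cont replicate 2 or LowAhR+AD+BJ replicate 4 (up to 0.105), and Jun without Cont replicate 2 or LowAhR+AD+BJ replicate 2 or 4 (up to 0.0649). Jund was no longer called with any 1 library left out other than LowAhR+AD+BJ replicate 3 (adjusted p up to 0.136), and Fosl1 without Cont replicate 2, 3 or 4 or LowAhR+AD+BJ replicate 1 or 4 (up to 0.0857).

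The hair shaft lists had the largest median changes of the 54 lists. All 49 keratin-associated protein genes tested, which encode the matrix of the hair shaft, were higher, with a median log2 fold change of 7.49, or 7.13 with genes at 0 in Cont set to their lower bound. 12 of 13 hair shaft keratins (median 6.48) and all 9 inner root sheath genes (median 5.28) were higher as well. Krt81 was at 0, 0, 17.8 and 85.4 CPM in the Cont mice and 1519.8, 5183, 5910.2 and 4082 CPM in the LowAhR+AD+BJ mice (log2 fold change 7.34 ± 1.80 (SE), adjusted p = 0.00812). Krt34, another shaft keratin, was at 0, 1.68, 5.31 and 18.9 and 209.9, 694, 917 and 512 CPM (log2 fold change 6.48 ± 1.42 (SE), adjusted p = 0.00401), and Tchh, trichohyalin of the inner root sheath, at 6.93, 78.2, 97 and 464 and 2668, 7808, 7409 and 7054 CPM (log2 fold change 5.27 ± 1.18 (SE), adjusted p = 0.00463). No LowAhR+AD+BJ mouse overlapped a Cont mouse for these 3 genes, and Cont replicate 4 had the highest Cont level of each. Krt71 rose from 0.128–103 to 632–1964 CPM and Krt31 from 1.68–20.2 to 158–599 CPM. Log2 fold changes were 7.14 for Krt33b, 7.12 for Krt84 and 7.03 for Krt36 of the shaft, and 7.42 for Krt26, 7.17 for Krt28 and 6.27 for Krt27 of the sheath.

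Hair genes were at a low and uneven level in Cont, with summed hair shaft keratins at 19.3, 31.1, 48.2 and 223 CPM, and at 2916, 9371, 10749.8 and 7479 CPM in LowAhR+AD+BJ. In LowAhR skin, which had no DNCB, the same sum was 1656, 18, 342 and 5997 CPM. LowAhR+AD+BJ replicate 1 was the lowest of its group. The phase of the hair cycle was not recorded in the labels, and its part in these differences was not tested. Single keratin-associated protein genes have near-identical copies and are uncertain. limma voom called 11 of the 49 keratin-associated protein genes and 3 hair shaft keratins.

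Windows of 2 hair shaft keratins are shown, since LEF1 is a known regulator of hair keratin genes. The letters CTTTGA, searched on both strands, were in 4 of the 7 hair shaft keratin windows found (57.1%), 2 of 9 inner root sheath windows (22.2%) and 14 of 44 keratin-associated protein windows (31.8%), against 16% of all windows. Windows of near-identical copies need not be independent here either. Capitals mark the letters in the RefSeq windows of Krt31 at chr11:100050502-100050801 (minus strand) and Krt34 at chr11:100041505-100041804 (minus strand), of the same length and build as above. Lef1 itself was at 0.359–6.8 CPM in Cont against 2.56–9.98 CPM in LowAhR+AD+BJ and did not pass (adjusted p = 0.253).
Krt31: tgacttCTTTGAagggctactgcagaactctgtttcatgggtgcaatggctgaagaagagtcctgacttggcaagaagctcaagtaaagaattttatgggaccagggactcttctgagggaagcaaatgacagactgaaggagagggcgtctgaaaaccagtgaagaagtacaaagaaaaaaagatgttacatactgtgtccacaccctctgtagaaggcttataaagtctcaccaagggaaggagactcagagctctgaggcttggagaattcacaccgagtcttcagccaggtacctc
Krt34: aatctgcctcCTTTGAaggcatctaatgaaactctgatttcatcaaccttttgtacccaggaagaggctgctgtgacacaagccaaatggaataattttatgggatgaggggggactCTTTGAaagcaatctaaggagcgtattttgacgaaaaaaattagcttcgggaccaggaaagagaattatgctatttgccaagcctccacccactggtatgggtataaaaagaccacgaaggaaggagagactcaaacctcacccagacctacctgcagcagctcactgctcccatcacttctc

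Regulators of the follicle were less uniform than its structural genes, with 5 higher and 3 lower of 19 tested. Hoxc13, a transcription factor of hair differentiation, was at 13.5, 5.43, 5.92 and 6.7 CPM in the Cont mice and 21, 57.5, 48.2 and 39.6 CPM in the LowAhR+AD+BJ mice (log2 fold change 2.40 ± 0.61 (SE), adjusted p = 0.0105). Msx2, a homeobox factor of the hair matrix (2.86), Padi3, a peptidylarginine deiminase that modifies trichohyalin (5.85), and Ctnnb1, beta-catenin (0.87), rose. Fgf5, a signal that ends hair growth, was at 0 in Cont and 1.64–3.67 CPM in LowAhR+AD+BJ, at least 7.1-fold higher (adjusted p = 0.0201). Cd34, a marker of bulge stem cells, fibroblasts and vessels, fell from 988, 2375, 1825 and 2143 to 365, 382, 654 and 458 CPM (log2 fold change -1.98 ± 0.31 (SE), adjusted p = 0.000494). Gata3, a factor of the inner root sheath, epidermis and lymphocytes, fell from 342–577 to 84–164 CPM (log2 fold change -1.89 ± 0.33 (SE), adjusted p = 0.00085), and Bmp4, a signal of the resting follicle, was lower (adjusted p = 0.0040). Msx2 was no longer called with any 1 library left out other than Cont replicate 4 (adjusted p up to 0.0962).

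The sebaceous list had 2 higher and 3 lower of 11. The stearoyl-CoA desaturases fell, Scd3 from 512, 384, 317 and 448 to 18, 25.9, 73 and 64 CPM (log2 fold change -3.20 ± 0.45 (SE), adjusted p = 0.000206) and Scd1, which fat also expresses, from 2483–3663 to 818–985 CPM (log2 fold change -1.75 ± 0.28 (SE), adjusted p = 0.000487). Acsbg1 fell by 1.23 on the log2 scale. Elovl3 (1.30) and Far2 (0.85), enzymes of sebum wax synthesis, rose. Elovl3 was no longer called without Cont replicate 2, 3 or 4 or LowAhR+AD+BJ replicate 1 or 2 (adjusted p up to 0.104).

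Most neutrophil markers that passed, and the chemokines that attract neutrophils, were above the untreated level. Of 11 neutrophil markers tested, 6 were higher and 1 lower, with a median log2 fold change of 4.01, or 3.30 with genes at 0 in Cont at their bound. Cxcr2, the chemokine receptor of neutrophils, was at 0.642, 0.129, 0.37 and 0.958 CPM in the Cont mice and 12.8, 9.16, 4.67 and 8.07 CPM in the LowAhR+AD+BJ mice (log2 fold change 4.01 ± 1.04 (SE), adjusted p = 0.011). Retnlg, a neutrophil secretory protein, rose from 0–0.904 to 2.8–19.1 CPM (log2 fold change 4.66 ± 0.99 (SE), adjusted p = 0.0032). Mmp8 (3.16) and the lectin Clec4d (4.81) rose, and Camp and Trem1, at 0 in Cont, reached 0.70–3.83 and 0.156–10.2 CPM, at least 7.5-fold and 9.83-fold. Il1r2, an interleukin 1 decoy receptor, was lower, at 88.4–208 CPM in Cont against 22.7–108 CPM in LowAhR+AD+BJ (-1.54, adjusted p = 0.0216). Of the other markers, Ngp and Ltf were at 0 in all 8 libraries and Elane at 0 in LowAhR+AD+BJ. The summed level of the list was 96.9, 186, 203 and 223 CPM in Cont against 225, 97.2, 135 and 118 CPM in LowAhR+AD+BJ, with overlap, and Il1r2 made up most of it in Cont. limma voom called 1 marker higher. Mmp8 was no longer called with any 1 library left out other than LowAhR+AD+BJ replicate 3 (adjusted p up to 0.0959), Camp without Cont replicate 2 or 3 (up to 0.0509), and Trem1 without Cont replicate 2 or 3 or LowAhR+AD+BJ replicate 1 (up to 0.0654). Il1r2 was no longer called without Cont replicate 4 or LowAhR+AD+BJ replicate 1, 2 or 4 (adjusted p up to 0.0693).

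In the CXC chemokine list, 4 of 10 were higher: Cxcl5, described above, its relatives Cxcl1 (3.62) and Cxcl2 (3.63), and Cxcl14, a chemokine of normal epithelium, which rose from 83.9–177 to 306–471 CPM (log2 fold change 1.68 ± 0.36 (SE), adjusted p = 0.00318). Cxcl2 was at 5.78, 1.16, 0.247 and 2.39 CPM in the Cont mice and 61.1, 39, 0.622 and 18.5 CPM in the LowAhR+AD+BJ mice, and LowAhR+AD+BJ replicate 3 overlapped Cont. limma voom called 1 CXC chemokine. Of 18 CC chemokines, the monocyte attractants Ccl7 (3.38), Ccl8 (1.58) and Ccl4 were higher and Ccl27a lower, a share near that of all tested genes. Ccl4 had 3 Cont counts in all, a ratio of 43.3 with a counting interval of 14.6 to 212 (adjusted p = 0.0224). Ccl7 was at 6.68, 4.26, 5.92 and 2.63 CPM in the Cont mice and 121, 29.5, 34 and 18.6 CPM in the LowAhR+AD+BJ mice, without overlap. Ccl27a, which keratinocytes make to attract skin-homing T cells, fell from 2343, 1940.2, 2302 and 2383 to 366, 567, 926 and 593 CPM (log2 fold change -1.87 ± 0.34 (SE), adjusted p = 0.00124). Il1b, the inflammasome cytokine, was the only one of 13 interleukin 1 family genes to pass, at 7.57, 6.33, 11 and 11.6 CPM in the Cont mice and 167, 124, 14.9 and 51.9 CPM in the LowAhR+AD+BJ mice (log2 fold change 3.29 ± 0.63 (SE), adjusted p = 0.00178). Cxcl1 was no longer called without Cont replicate 2, 3 or 4 or LowAhR+AD+BJ replicate 1 or 2 (adjusted p up to 0.181), Cxcl2 without Cont replicate 2 or LowAhR+AD+BJ replicate 1 (up to 0.0688), and Ccl4 without Cont replicate 2, 3 or 4 or LowAhR+AD+BJ replicate 1 (up to 0.102). Ccl8 was no longer called with any 1 of the 8 libraries left out (adjusted p up to 0.129).

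Type 2 immunity is the arm that drives atopic dermatitis, through interleukins 4 and 13. Of 15 tested genes of this list, 5 were higher and 1 lower. Il4ra, the receptor chain that both cytokines use, was at 28.2, 45.9, 53.7 and 48.7 CPM in the Cont mice and 173, 109, 89.5 and 145 CPM in the LowAhR+AD+BJ mice, without overlap (log2 fold change 1.55 ± 0.33 (SE), adjusted p = 0.00336). Il13ra1, its partner, was at 34.8, 55.2, 47.8 and 40.9 CPM in the Cont mice and 121, 106, 93.3 and 69.3 CPM in the LowAhR+AD+BJ mice (log2 fold change 1.12 ± 0.32 (SE), adjusted p = 0.0193). Chil3, a chitinase-like protein of alternatively activated macrophages, rose from 0–0.987 to 4.51–123 CPM (log2 fold change 7.36 ± 1.30 (SE), adjusted p = 0.00145), the eosinophil chemokine receptor Ccr3 by 5.35 and periostin, Postn, from 52.6–75.1 to 91.6–364 CPM (log2 fold change 1.90 ± 0.54 (SE), adjusted p = 0.0186). Il31ra, the receptor of the itch cytokine interleukin 31, was at 8.6, 3.88, 4.57 and 3.59 CPM in Cont against 0, 0, 0.545 and 0 CPM in LowAhR+AD+BJ (log2 fold change -5.05 ± 1.42 (SE), adjusted p = 0.0183). Its counts in LowAhR+AD+BJ came from replicate 3 alone, and without that mouse it was at least 16.9-fold lower. The cytokine genes themselves were too rare to test: Il4 had counts in 1 of the 8 libraries, and Il13 was at 0 in all of them. Stat3 was at 90.5–129 and 85.7–149 CPM, with a log2 fold change of -0.01 (95% interval -0.54 to 0.52). limma voom called 3 genes of the list higher. Il13ra1 was no longer called without Cont replicate 1 or 4 or LowAhR+AD+BJ replicate 1 or 2 (adjusted p up to 0.0638), Postn without Cont replicate 1 or 2 or LowAhR+AD+BJ replicate 1 or 2 (up to 0.062), and Il31ra without Cont replicate 1 or LowAhR+AD+BJ replicate 1 or 2 (up to 0.0544).

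Antimicrobial genes rose in 7 of 14 cases with none lower. Slpi, a leukocyte protease inhibitor, was at 2.05, 2.58, 1.11 and 4.19 CPM in the Cont mice and 295, 140.1, 30.4 and 129 CPM in the LowAhR+AD+BJ mice (log2 fold change 5.89 ± 0.69 (SE), adjusted p = 8.12e-05). Lcn2, which withholds iron from bacteria, rose from 4.01–15.4 to 21.5–252 CPM (log2 fold change 3.76 ± 0.78 (SE), adjusted p = 0.0029). The beta-defensins Defb3 (4.42), Defb4 (2.93) and Defb1 (1.80), Wfdc12 (2.48) and the pentraxin Ptx3, at 0 in Cont and 0.233–6.66 CPM in LowAhR+AD+BJ (at least 5.75-fold), were the others. In the interleukin 20 family, Il24 went from 0 in Cont to 25.1, 21, 1.63 and 3.23 CPM, at least 32.9-fold (adjusted p = 0.00299), and the receptor chains Il22ra1, from 31.4–68.4 to 5.29–15.6 CPM (log2 fold change -1.95 ± 0.38 (SE), adjusted p = 0.0019), and Il20rb (-1.29) were lower. limma voom called 3 antimicrobial genes. Defb3 was no longer called with any 1 library left out other than Cont replicate 2 or LowAhR+AD+BJ replicate 3 (adjusted p up to 0.0933), Defb4 with any 1 library left out other than LowAhR+AD+BJ replicate 3 (up to 0.0867), and Ptx3 without Cont replicate 1, 2, 3 or 4 or LowAhR+AD+BJ replicate 1 (up to 0.0843).

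Few markers of resident immune cells passed. The shares called among MHC class II genes, mast cell markers and macrophage markers are near or below the 19.9% of all tested genes. None of 17 T cell markers, 10 Langerhans and dendritic cell markers, 12 complement genes or 5 type 17 genes passed. The complement list does not hold C7, described above, which was lower (-4.16, adjusted p = 0.0179). The summed T cell markers were at 48.7–58.4 CPM in Cont against 24.2–52.7 CPM in LowAhR+AD+BJ. Of 9 MHC class II genes, H2-Ab1 was lower, at 661, 1042, 1129 and 723 CPM in the Cont mice and 150.1, 120.5, 589 and 211 CPM in the LowAhR+AD+BJ mice (log2 fold change -1.73 ± 0.44 (SE), adjusted p = 0.00935), and so was the invariant chain Cd74 (log2 fold change -1.62 ± 0.41 (SE), adjusted p = 0.00994). LowAhR+AD+BJ replicate 3 was the highest of its group for both, and without it their log2 fold changes were -2.47 and -2.32 and 5 class II genes were lower. Mast cell proteases Cma1, from 33.3–64.9 to 54.8–179 CPM (1.53, adjusted p = 0.00623), and Cpa3 (1.51) rose among 10 mast cell markers, with 5 markers higher without LowAhR+AD+BJ replicate 3. Of 4 eosinophil and basophil markers tested, Ear6 and Siglecf were higher, and the 2 others had negative log2 fold changes and did not pass. The summed level of this list was 21.7, 55.4, 38.3 and 41.9 CPM in Cont. In LowAhR+AD+BJ it was 15.1, 26.7, 113 and 15.2 CPM, with overlap and only replicate 3 above Cont. Ear6 had 2 Cont counts in all (a ratio of 77.1 with a counting interval of 21.1 to 641), and Siglecf was at 0 in Cont and 3.74, 9.98, 1.24 and 0 CPM in LowAhR+AD+BJ, at least 9.65-fold. The scavenger receptor Msr1 (2.14) and the Fc receptor Fcgr1 (1.97) passed among 13 macrophage markers, of which limma voom called 0. Single genes passed among 15 STAT, JAK and SOCS genes (Stat5b, -0.90), 12 MHC class I genes (Tap1, -1.54) and 22 interferon-stimulated genes (Ifitm3, 0.88). Siglecf was no longer called without Cont replicate 1, 2, 3 or 4 or LowAhR+AD+BJ replicate 2 (adjusted p up to 0.0778), Msr1 without Cont replicate 1 or 3 or LowAhR+AD+BJ replicate 1 (up to 0.091), and Fcgr1 with any 1 library left out other than Cont replicate 1 or LowAhR+AD+BJ replicate 3 (up to 0.167). Stat5b was no longer called without Cont replicate 2 or 3 or LowAhR+AD+BJ replicate 1, 2 or 4 (adjusted p up to 0.0962), Tap1 without Cont replicate 1 or 3 or LowAhR+AD+BJ replicate 1 or 2 (up to 0.0798), and Ifitm3 with any 1 library left out other than LowAhR+AD+BJ replicate 3 (up to 0.162).

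Of 17 collagen genes, Col1a1, Col1a2, Col3a1 and Col17a1 were lower and Col12a1 was higher (median -0.81). The share called was 29.4%, against 19.9% of all tested genes, and DESeq2 called 7 lower. Col1a1, a chain of the main dermal collagen, was at 12879.9, 20013, 15623 and 10945 CPM in the Cont mice and 2550.4, 1785, 4572 and 2235 CPM in the LowAhR+AD+BJ mice, without overlap (log2 fold change -2.42 ± 0.43 (SE), adjusted p = 0.00108). Col1a2 fell from 7911–24141 to 2404–5747 CPM (log2 fold change -2.33 ± 0.57 (SE), adjusted p = 0.00817), Col3a1 from 2928–11809 to 2178–2612 CPM (log2 fold change -1.71 ± 0.51 (SE), adjusted p = 0.024), and Col17a1, a collagen of basal keratinocytes, from 186–280.5 to 66.3–103 CPM (log2 fold change -1.38 ± 0.24 (SE), adjusted p = 0.00075). Col12a1, a fibril-associated collagen, rose from 5.15–9.25 to 10.6–55.6 CPM (log2 fold change 2.41 ± 0.41 (SE), adjusted p = 0.000704). Among 12 fibroblast markers, Sparc (-2.15), the collagen cross-linker Lox (-1.86), Dpt (-1.60) and fibronectin, Fn1 (-1.44), fell, and tenascin C, Tnc, a matrix protein of wounds, rose from 4.11, 1.03, 5.8 and 2.51 to 603, 307, 35.6 and 251 CPM (log2 fold change 6.47 ± 0.93 (SE), adjusted p = 0.000247). Col3a1 was no longer called with any 1 library left out other than Cont replicate 1 or 4 (adjusted p up to 0.0808).

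In the list of matrix metalloproteinases and their inhibitors, 5 of 13 were higher. Mmp13, an interstitial collagenase, was at 3.34, 2.45, 3.7 and 0 CPM in the Cont mice and 91.7, 45.8, 0.622 and 58.7 CPM in the LowAhR+AD+BJ mice (log2 fold change 4.37 ± 1.17 (SE), adjusted p = 0.0139), with LowAhR+AD+BJ replicate 3 inside the Cont range. Timp1, an inhibitor of these proteases, rose from 0.12–6.98 to 27.9–92.2 CPM (log2 fold change 4.05 ± 0.75 (SE), adjusted p = 0.00132), and Mmp11 (1.70), Mmp19 (1.34) and Mmp10, at 0 in Cont and 8.03, 3.77, 0.233 and 0 CPM in LowAhR+AD+BJ (at least 7.76-fold), were higher. Mmp14, a membrane-bound collagenase of fibroblasts, was lower (-1.23, adjusted p = 0.0105). Mmp11 was no longer called without Cont replicate 1 or LowAhR+AD+BJ replicate 1 (adjusted p up to 0.0555), Mmp19 without Cont replicate 1 or 3 or LowAhR+AD+BJ replicate 1 (up to 0.0909), and Mmp10 with any 1 library left out other than LowAhR+AD+BJ replicate 3 or 4 (up to 0.106).

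Of the 15 endothelial, 15 adipocyte and 21 skeletal muscle markers tested, 3, 5 and 4 were lower and none was higher. The endothelial share and the muscle share are near the 19.9% of all tested genes, so these counts say nothing particular about vessels or muscle. The adipocyte share was 33.3%. Among the endothelial markers, Cldn5 fell from 27.1, 24, 28.4 and 26.8 to 5.57, 4.58, 3.89 and 2.72 CPM (log2 fold change -2.66 ± 0.41 (SE), adjusted p = 0.000426), and Tek (-1.88) and Icam1 (-1.15) were lower. The lower adipocyte markers were Thrsp, a factor of fat synthesis, at 25–39.6 and 2.82–7.3 CPM (log2 fold change -2.62 ± 0.50 (SE), adjusted p = 0.00157), Retn (-2.19), the insulin-responsive glucose transporter Slc2a4 (-2.09), Car3 (-1.84) and Cidec (-1.26). The summed adipocyte level was 2729–5725 CPM in Cont against 2502–3549 CPM in LowAhR+AD+BJ. Without LowAhR+AD+BJ replicate 3, 8 skeletal muscle markers were lower. Myh1, a fast myosin, was at 1474, 793, 632 and 1066 CPM in the Cont mice and 77.6, 69.3, 90.2 and 177 CPM in the LowAhR+AD+BJ mice, without overlap (log2 fold change -3.26 ± 0.61 (SE), adjusted p = 0.00144), and titin, Ttn (-2.03), myoglobin, Mb (-1.99), and Myh2 (-1.64) fell. The summed muscle level was 25841, 15132, 14447 and 21140.4 CPM in Cont against 8914, 5503, 17729 and 5573 CPM in LowAhR+AD+BJ, and LowAhR+AD+BJ replicate 3 lay inside the Cont range. Tek was no longer called without Cont replicate 2 or 4 or LowAhR+AD+BJ replicate 2 or 4 (adjusted p up to 0.0661), Icam1 with any 1 library left out other than Cont replicate 4 or LowAhR+AD+BJ replicate 3 (up to 0.108), and Car3 without Cont replicate 4 or LowAhR+AD+BJ replicate 2 or 4 (up to 0.0784). Ttn was no longer called without Cont replicate 1 or LowAhR+AD+BJ replicate 1, 2 or 4 (adjusted p up to 0.0658), Mb without LowAhR+AD+BJ replicate 1 or 2 (up to 0.0622), and Myh2 without Cont replicate 3 or LowAhR+AD+BJ replicate 1, 2 or 4 (up to 0.0807).

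**Figure D4:**
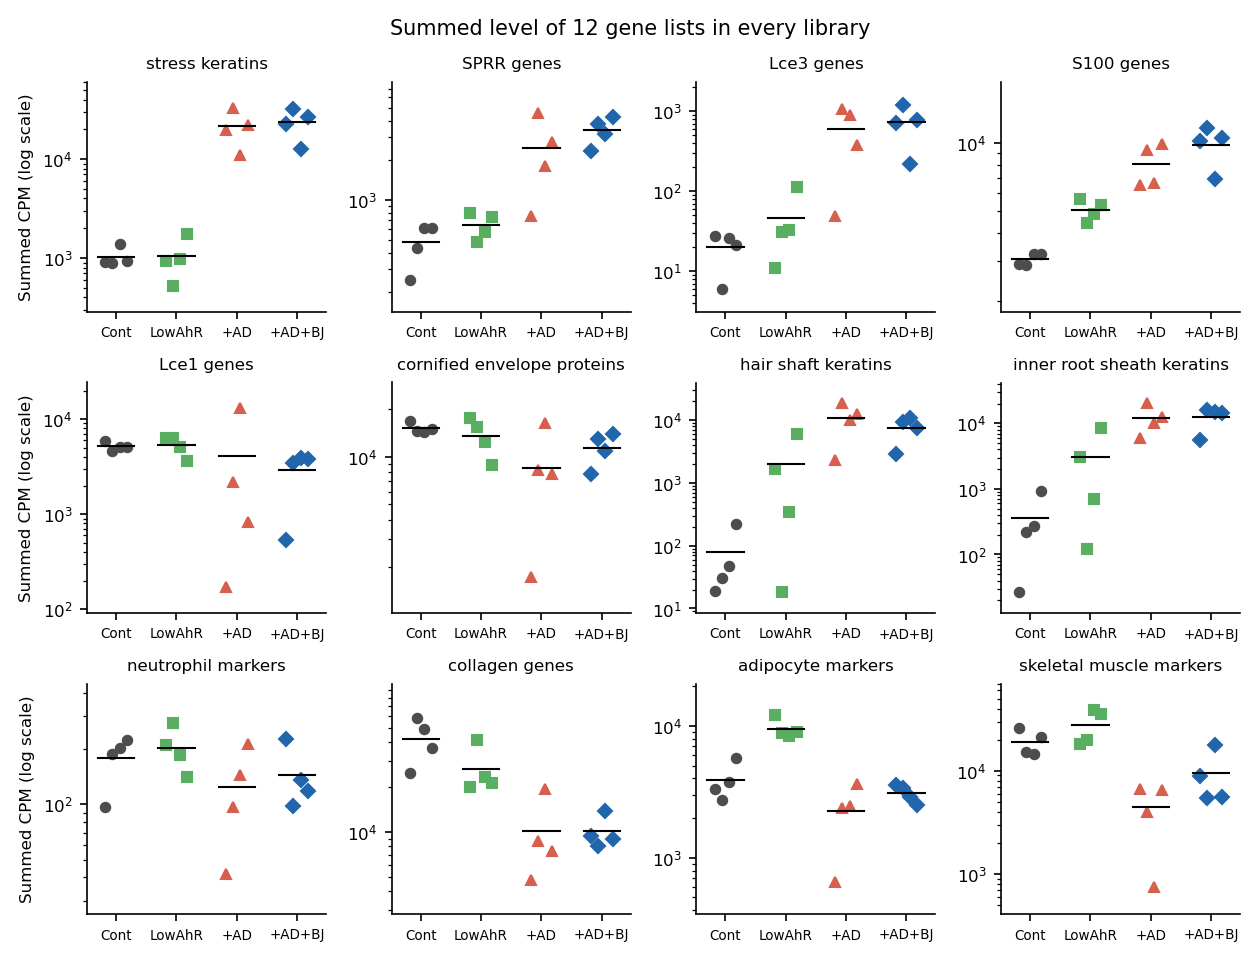
Summed CPM on a log axis of 12 gene lists in every library of the 4 groups, with 1 point per mouse and a bar at the group mean. Stress keratin, SPRR, Lce3 and S100 sums of the LowAhR+AD+BJ mice all lie above the Cont range, and their collagen and Lce1 sums lie below it.

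Of 10 AhR pathway genes tested, 2 were lower and none higher, a share near the 19.9% of all tested genes, so that the count says nothing particular about the pathway. Ahr was at 51.7, 49, 41.5 and 47.9 CPM in the Cont mice and 19.99, 11.8, 30.9 and 15.2 CPM in the LowAhR+AD+BJ mice, without overlap (log2 fold change -1.28 ± 0.37 (SE), adjusted p = 0.021). Aldh3a1, an aldehyde dehydrogenase induced by AhR, was at 139.8, 138, 159 and 137 CPM in the Cont mice and 18.9, 25.3, 101 and 53.5 CPM in the LowAhR+AD+BJ mice (log2 fold change -1.53 ± 0.41 (SE), adjusted p = 0.0136), with a log2 fold change of -2.14 without LowAhR+AD+BJ replicate 3. Ahrr, the repressor that AhR induces against itself, was at 9.76, 15.9, 16.9 and 12 CPM in Cont against 0.73, 1.53, 5.6 and 5.04 CPM in LowAhR+AD+BJ. The groups did not overlap, but the gene did not pass (log2 fold change -2.07 ± 0.89 (SE), adjusted p = 0.115). Cyp1a1, the classic target, was at 9.5, 23.4, 11.1 and 11.3 and 26.7, 11.8, 3.42 and 10.6 CPM, with a log2 fold change of -0.07 (95% interval -1.17 to 1.03), and Cyp1b1 was at 49.9–82.3 and 59.1–79.7 CPM (0.21, 95% interval -0.39 to 0.82). Both groups overlapped for these 2 genes, and changes within the intervals were not resolved. Ahr was no longer called without LowAhR+AD+BJ replicate 2 or 4 (adjusted p up to 0.0749).

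RefSeq windows of Ahrr and Cyp1a1 are shown because AhR binds the xenobiotic response core, whose letters GCGTG were searched on both strands. The core was in 5 of 7 AhR pathway windows found (71.4%) and in 32.4% of all windows. Capitals mark it in Ahrr at chr13:74292282-74292581 (minus strand) and Cyp1a1 at chr9:57697363-57697662 (plus strand). Known enhancers of Cyp1a1 lie farther upstream than this window.
Ahrr: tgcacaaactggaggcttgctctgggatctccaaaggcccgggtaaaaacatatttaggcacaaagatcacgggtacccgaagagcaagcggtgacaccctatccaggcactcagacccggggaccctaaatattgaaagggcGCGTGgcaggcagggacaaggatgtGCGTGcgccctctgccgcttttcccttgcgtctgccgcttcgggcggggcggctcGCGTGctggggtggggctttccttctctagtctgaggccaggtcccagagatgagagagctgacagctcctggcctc
Cyp1a1: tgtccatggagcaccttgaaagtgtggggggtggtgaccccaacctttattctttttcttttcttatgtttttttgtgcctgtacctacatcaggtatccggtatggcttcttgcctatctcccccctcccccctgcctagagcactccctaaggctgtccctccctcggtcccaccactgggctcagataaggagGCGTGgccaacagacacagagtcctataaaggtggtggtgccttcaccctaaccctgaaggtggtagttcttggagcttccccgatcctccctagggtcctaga

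Genes of the oxidative stress factor NRF2 were higher in 6 of 13 cases. Slc7a11, the cystine transporter, was at 0 in all Cont mice and 15.5, 37.7, 17.9 and 12 CPM in LowAhR+AD+BJ, at least 53.6-fold higher (adjusted p = 0.000598). Gpx2, a glutathione peroxidase of epithelia, was at 5.65, 2.84, 0.123 and 1.2 CPM in the Cont mice and 83.1, 60.7, 35.2 and 86 CPM in the LowAhR+AD+BJ mice (log2 fold change 4.76 ± 1.10 (SE), adjusted p = 0.00566), and Prdx1, a peroxiredoxin, rose from 134–192 to 382–806 CPM (log2 fold change 1.98 ± 0.26 (SE), adjusted p = 0.000134). G6pdx (1.05), Cbr3 (0.98) and Srxn1 (0.84) passed with smaller changes, and limma voom called 4 higher and 1 lower. Of 16 glutathione S-transferases, Gsta4 (3.73) and Gsto1 (1.32) were higher and Gsta3 (-2.09) lower, a share near that of all tested genes. Cbr3 was no longer called without Cont replicate 2 or 4 or LowAhR+AD+BJ replicate 1 (adjusted p up to 0.0578), and Srxn1 with any 1 library left out other than LowAhR+AD+BJ replicate 3 (up to 0.139).

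Retinoid genes had 5 higher and 3 lower of 15. Retinoic acid binding proteins rose, Crabp2 from 85.8–103 to 229–643 CPM (log2 fold change 2.34 ± 0.32 (SE), adjusted p = 0.000195) and Crabp1 by 3.43, as did Lrat, which stores retinol as esters (2.76), and Rdh12 (1.05). Aldh1a1, which makes retinoic acid, fell from 131, 227, 292 and 286 to 52.1, 26.5, 98.1 and 32.3 CPM (log2 fold change -2.16 ± 0.36 (SE), adjusted p = 0.000703), and Cyp26b1, which degrades it, from 539.9–1135 to 239.9–409.6 CPM (log2 fold change -1.45 ± 0.28 (SE), adjusted p = 0.00161), with the receptor Rarg at -0.74. Of 16 circadian genes, the 4 that passed were lower: Clock, from 56–84.7 to 26.7–41.1 CPM (log2 fold change -0.98 ± 0.24 (SE), adjusted p = 0.00813), Hlf (-2.31), Cry2 (-1.26) and Tef (-0.91). This share of 25% is near the 19.9% of all tested genes. The hour of sampling is not given in the sources used here. Rarg was no longer called with any 1 library left out other than Cont replicate 2 or LowAhR+AD+BJ replicate 3 (adjusted p up to 0.131), Hlf without Cont replicate 1 (up to 0.0651), and Cry2 with any 1 library left out other than Cont replicate 3 or LowAhR+AD+BJ replicate 3 (up to 0.115). Tef was no longer called with any 1 library left out other than Cont replicate 3 (adjusted p up to 0.126).

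Ribosomal and respiratory genes shifted upward by small amounts. Of 76 cytosolic ribosomal protein genes, 34 were higher and none lower (median log2 fold change 0.59), among them Rps16 (1.54, adjusted p = 0.00107) and Rpl10a (1.32). Fewer ribosomal genes passed without Cont replicate 1, 2 or 3 or LowAhR+AD+BJ replicate 2 or 4 (18 to 21). Of 72 respiratory chain genes, 20 were higher and none lower (median 0.46), led by Cox7a2 (log2 fold change 1.30 ± 0.27 (SE), adjusted p = 0.00259) and Sdhb (1.24). The share called higher was 27.8%, against 11.2% of all tested genes. In LowAhR skin, without DNCB or BJIKT, the median log2 fold change from Cont was 0.44 for ribosomal and 0.39 for respiratory chain genes. The cause of the shift was not tested. Glycolysis genes had 3 higher, Pfkl (1.34), Pgk1 (0.92) and Pgam1 (0.92), and 2 lower, Hk2 (-0.82) and the lactate exporter Slc16a3 (-1.43), of 15. Their called share was 33.3%, against 19.9% of all tested genes. Among 9 melanocyte markers Tyrp1 (3.69) and Slc45a2, at 0 in Cont and at least 5.03-fold higher, passed, again a share near that of all tested genes. Slc16a3 was no longer called with any 1 library left out other than Cont replicate 3 or LowAhR+AD+BJ replicate 3 (adjusted p up to 0.124), and Slc45a2 with any 1 library left out other than LowAhR+AD+BJ replicate 3 (up to 0.0899).

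The same genes in dermatitis without BJIKT give the scale of the remaining distance. LowAhR+AD against Cont called 3233 of the tested genes (21.8%), 1827 higher and 1406 lower. This comparison uses the same Cont libraries, so its values are set side by side and not correlated. The log2 fold change from Cont was 6.23 in LowAhR+AD+BJ and 6.15 in LowAhR+AD for Krt6a, 7.06 and 6.42 for S100a8, 5.08 and 4.69 for Sprr1b, and -2.91 and -2.58 for Lor. It was 1.55 and 1.36 for Il4ra, -1.28 and -1.73 for Ahr, and -3.35 and -6.65 for Krt77. List medians were 5.16 and 4.65 for SPRR genes, 6.03 and 5.90 for stress keratins, and -1.07 and -2.15 for skeletal muscle. LowAhR+AD had 15 lower muscle markers and LowAhR+AD+BJ had 4. Between LowAhR+AD+BJ and LowAhR+AD, edgeR called 0 muscle markers (median log2 fold change 1.16). The counts of 15 and 4 therefore show no difference that edgeR detected between the 2 groups. At an unadjusted p under 0.05 (edgeR), 8 of the 21 muscle markers differed, against 1405 of the 14854 tested genes.

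**Figure D5:**
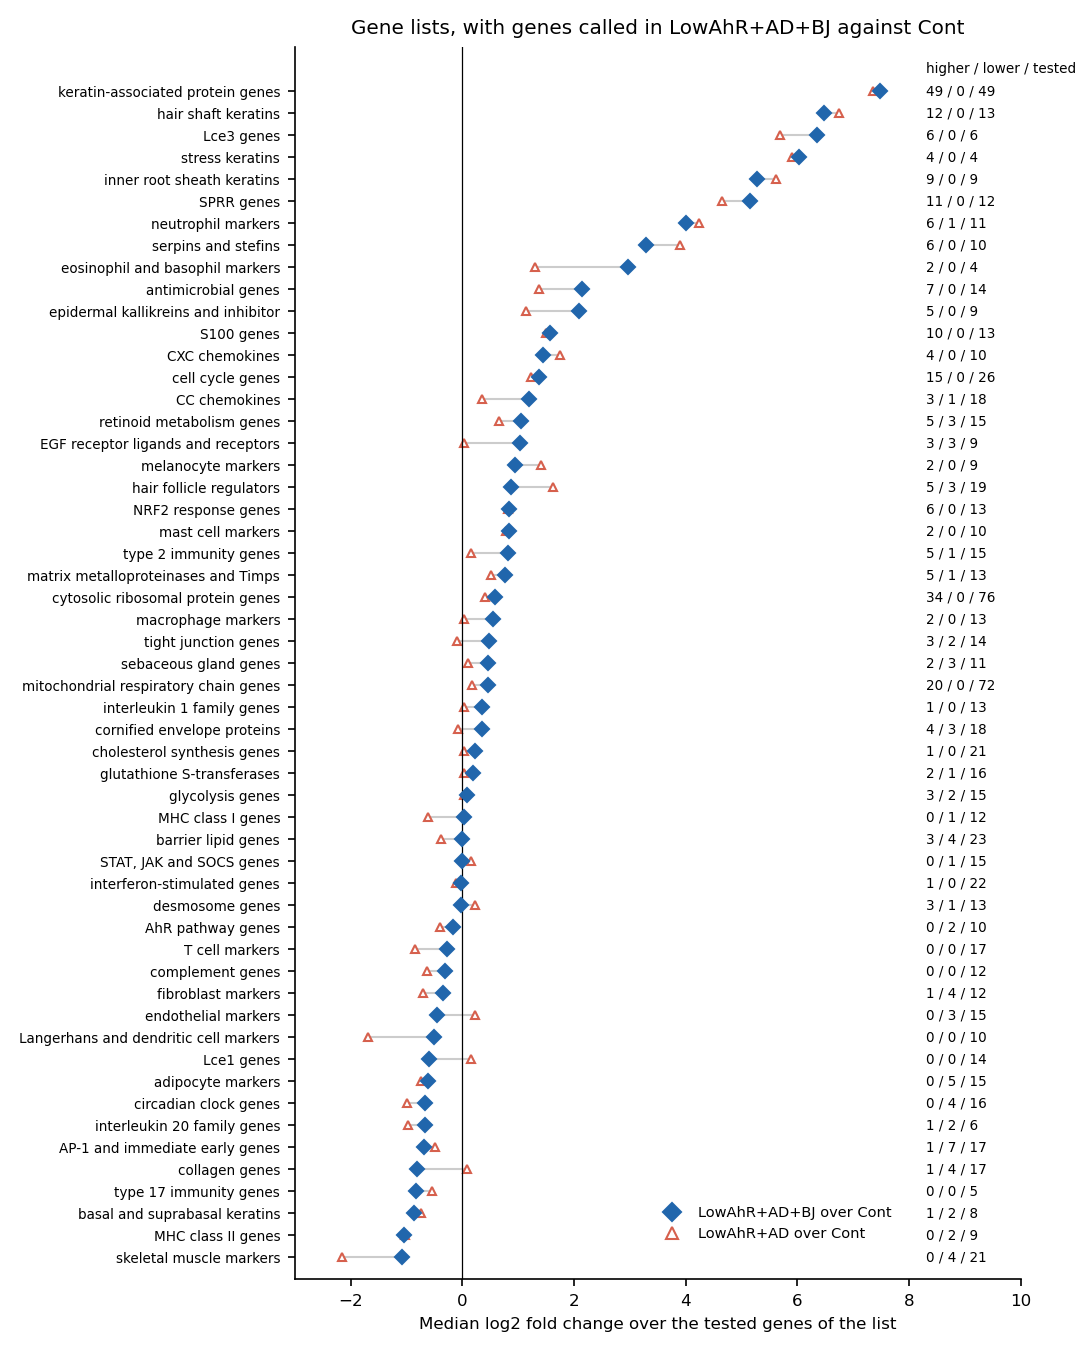
Median log2 fold change over Cont of each of 54 gene lists in LowAhR+AD+BJ (filled) and LowAhR+AD (open), on a horizontal log2 axis, with the genes called higher and lower in LowAhR+AD+BJ against Cont and the number tested at the right. Both comparisons share the Cont libraries, and the hair, Lce3, stress keratin and SPRR lists lie farthest to the right in both.

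The direct test between the treated and untreated dermatitis groups called 0 genes (0%), with a lowest adjusted p of 0.193 (edgeR). At an unadjusted p under 0.05 (edgeR) there were 1405 of the 14854 tested genes. DESeq2 called 17 genes, of which 14 were higher in LowAhR+AD+BJ and 3 lower. The lowest DESeq2 adjusted p was that of Mylk4 (log2 fold change 4.39, adjusted p = 8.95e-07), named after its values were seen. Without LowAhR+AD replicate 2 edgeR called Atcayos and without LowAhR+AD replicate 3 it called Apol7a, both higher in LowAhR+AD+BJ and named after their values were seen. The difference between the groups, as log2 fold change of LowAhR+AD+BJ over LowAhR+AD, was 0.08 (95% interval -1.05 to 1.21) for Krt6a, 0.64 (95% interval -0.63 to 1.90) for S100a8 and -0.33 (95% interval -1.78 to 1.12) for Lor. It was 0.18 (95% interval -0.49 to 0.86) for Il4ra, 0.45 (95% interval -0.33 to 1.22) for Ahr and 0.84 (95% interval -0.27 to 1.95) for Cyp1a1. None of these passed, and each interval spans 0, so a change toward or away from Cont within those limits was not detectable with 4 mice a group.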

How the data were processed

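QuantSeq 3′ mRNA libraries of dorsal skin were sequenced from one end on a NextSeq 500, and the authors deposited raw read counts per gene symbol for each of the 16 libraries. The submitters' processing notes name Bowtie2, bedtools and mm10. Versions, the handling of multi-mapping reads and the use of strand are not given in the sources used here, so near-identical or overlapping genes may share reads. Genes were kept by filterByExpr (minimum count 10), normalized by TMM and fitted with the edgeR quasi-likelihood model over all 16 libraries and 4 groups, without covariates (R 4.3.3, edgeR 4.0.16, limma 3.58.1, DESeq2 1.42.0). Adjusted p under 0.05 over all tested genes (Benjamini-Hochberg) is a call. An adjusted p without a tool is from this edgeR fit. Intervals are at 95%, and intervals and floors from counts cover counting error only. Distances used log2 CPM with a prior count of 2 and a two-sided exact permutation test. The script was checked on simulated data. Alternatives were other size factors, filters, DESeq2, limma voom, a replicate block, thinning, the 8 libraries alone, a minimum change and leaving out each library.

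The report names 14 genes that the study follows, the 10 largest rises and falls without overlap and with a mean of at least 10 CPM in 1 group, and, per list, up to 4 called genes a direction with that mean and genes the list is known for. The other called members of lists were named after their values were seen. The comparison and the 54 gene lists were chosen with earlier results of these data known. Some members of the lists are not reported here. Promoters are RefSeq sequences on GRCm38.p6, the assembly that mm10 represents.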

Additional observations from a re-analysis of the deposited data

Results flagged for a closer look

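In each group of 4, the highest or lowest library was set apart where its gap to the nearest other library was a larger share of the group's range than Dixon's 95% critical value. Of 510 groups of 4 values looked at, over the genes and list sums named here, 50 were set apart. A chance rate of about 1 in 20 holds for normally distributed values only. A library with counts beside 3 at 0 is always set apart, so the 50 cannot be set against that rate. Each value is given with the range of the other 3 libraries of its group, and the causes were not tested.

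In replicate 1 of LowAhR+AD+BJ, values above the rest of the group were those of Ccl4 (11 against 1.4–2.12 CPM), Ccl7 (121 against 18.6–34 CPM), Clec4d (67.3 against 3.34–10.4 CPM), Mmp11 (95.6 against 52.8–54.2 CPM) and Saa1 (100.03 against 10.4–14.3 CPM). Further such values were those of Sptlc2 (64.7 against 46.3–48.7 CPM). In replicate 1 of LowAhR+AD+BJ, values below the rest of the group were those of Krtap1-3 (51.3 against 225–239.9 CPM), S100a3 (194 against 612–682 CPM), Tchh (2668 against 7054–7808 CPM), the summed Lce1 genes (540.3 against 3479–3901 CPM) and the summed inner root sheath keratins (5670.2 against 14218–15817 CPM). In replicate 2 of LowAhR+AD+BJ, values below the rest of the group were those of Myh2 (40.6 against 62.3–65.1 CPM). In replicate 3 of LowAhR+AD+BJ, values above the rest of the group were those of Cd74 (878 against 214–295 CPM), Col1a2 (5747 against 2404–2970.5 CPM), Dab1 (7.93 against 0 CPM), Il22ra2 (4.36 against 0 CPM) and Il31ra (0.545 against 0 CPM). Further such values were those of Krt77 (5.83 against 0–0.509 CPM). In replicate 3 of LowAhR+AD+BJ, values below the rest of the group were those of Camp (0.70 against 3.43–3.83 CPM) and Sprr1b (158 against 446–482 CPM).

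In replicate 1 of Cont, values above the rest of the group were those of Ccl4 (0.385 against 0 CPM), Hoxc13 (13.5 against 5.43–6.7 CPM), Rps16 (345 against 269.6–275 CPM), Sprr2b (1.67 against 0 CPM) and Ttn (2893 against 1280.2–1526 CPM). In replicate 1 of Cont, values below the rest of the group were those of Ifitm3 (429 against 631–662 CPM) and Lox (359 against 803–834 CPM). In replicate 2 of Cont, values above the rest of the group were those of Cyp1a1 (23.4 against 9.5–11.3 CPM), Defb3 (3.62 against 0 CPM), Lce3b (1.29 against 0–0.12 CPM) and Wfdc12 (27 against 4.88–8.26 CPM). In replicate 2 of Cont, values below the rest of the group were those of Krt1 (449.5 against 656–695 CPM) and Sprr2h (0 against 2.59–2.99 CPM). In replicate 3 of Cont, values above the rest of the group were those of Aldh3a1 (159 against 137–139.8 CPM), Ccr3 (0.494 against 0 CPM), Chil3 (0.987 against 0 CPM), Cyp1b1 (82.3 against 49.9–54.9 CPM) and Epgn (16.8 against 3.62–5.63 CPM). Further such values were those of Krtap1-3 (0.123 against 0 CPM), Padi3 (3.21 against 0 CPM), S100a7a (0.37 against 0 CPM), Sprr2g (0.123 against 0 CPM) and Stfa1 (9.5 against 2.15–3.23 CPM). Further such values were those of the summed stress keratins (1376 against 880.4–930.0 CPM). In replicate 4 of Cont, values above the rest of the group were those of Krt31 (20.2 against 1.68–1.97 CPM), Krt33b (13.9 against 0–1.29 CPM), Krt36 (1.32 against 0 CPM), Krtap19-2 (1.56 against 0 CPM) and Tgm3 (44.9 against 17.1–20.4 CPM). Further such values were those of the summed hair shaft keratins (223 against 19.3–48.2 CPM).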

How the results depend on the processing

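The count of genes between LowAhR+AD+BJ and Cont, 2949 in the report, was 2690 by limma voom, 3607 by DESeq2 and 3619 with the 8 compared libraries alone, and 1988 to 3035 with 1 library left out, lowest without LowAhR+AD+BJ replicate 2. A test for changes beyond 2-fold gave 419 genes between LowAhR+AD+BJ and Cont and 559 between LowAhR+AD and Cont, since it asks for larger changes. The count between LowAhR+AD and Cont was 2459 to 3486 with 1 library left out and 2351 to 3886 under the other alternatives apart from the 2-fold test. The count between LowAhR+AD+BJ and LowAhR+AD was 0 in all alternatives except DESeq2, with 17, and the fits with 1 library left out, with 0 to 1. The cause of the DESeq2 difference was not tested. The difference in distance from Cont between LowAhR+AD+BJ and LowAhR+AD, -0.139 in the report, stayed below 0, from -0.195 to -0.0223 with 1 library left out, and passed no test.

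Replicate numbers did not pair LowAhR+AD+BJ with Cont mice: deviations from the group means correlated at -0.0147, -0.00519, 0.0354 and -0.0321 for numbers 1 to 4. With a replicate block the count between LowAhR+AD+BJ and Cont was 2806, that between LowAhR+AD and Cont 2990, and the excess distance 0.502 with an exact permutation p of 0.125, the smallest that exchanges within the 4 numbers can give. Without the block the excess was 0.449 to 0.558 with 1 library left out.

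Of 227 called genes followed through the fits with 1 library left out, 162 kept their call in each and 65 lost it in at least 1, and no called gene changed sign. limma voom ended the call of 58 followed genes and the test beyond 2-fold that of 133. In every alternative that tested them, 64 of the 227 stayed called. The 227 were not drawn at random from the 2949 called genes, of which 67% to 89.8% kept their call with 1 library left out. The log2 fold changes of 3 uncalled genes changed sign: those of Stat3 (-0.19 to 0.10), Cyp1a1 (-0.68 to 0.31) and Krt1 (-0.86 to 0.22), as ranges with 1 library left out. Counts of list members under the alternatives were added after the data were seen. Cont libraries were shallower than LowAhR+AD+BJ libraries, which limits the detection of genes near 0 in Cont.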
